A study of Mus musculus with 32 samples.

Results

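The expression of *Ctcf* and of 9 genes of the cohesin complex and its regulators was followed by RNA-seq in mES cells that differentiate into primitive endoderm (PrE) after induction of a *Gata6* transgene. The members were the rows of the deposited table whose symbol was *Ctcf*, *Smc1a*, *Smc3*, *Rad21*, *Stag1*, *Stag2*, *Nipbl*, *Wapl*, *Pds5a* or *Pds5b*. All 10 were found among 54233 rows, and all 10 were among the 15227 genes that reached 10 normalized counts in 4 or more samples. The cells were of the KH2 line (strain C57BL/6) and carried a single copy of the transgene TRE:GATA6-DSREd2, in which a doxycycline-responsive element drives GATA6 in one direction and a red fluorescent protein in the other. All 32 samples carried it, so the 4 samples at 0 h were uninduced cells of the same line, grown on gelatin in 2i medium with the inhibitors PD0325901 and CHIR9902 (as the labels spell them) and LIF. Cells at 2, 4 and 8 h were in serum medium with LIF and 1 µg/ml doxycycline (Dox), and those at 16, 24, 48 and 96 h had 12 h of Dox followed by serum medium without it, with 4 samples at each time. Every comparison with 0 h therefore joined a change of medium to the addition of Dox, and the effects of these cannot be told apart. The study describes its replicates in general as independent experiments, and the labels do not say whether the 4 samples of a time were separate cultures, so p-values measure the spread between these samples.

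CTCF is a zinc-finger protein that binds DNA at a defined motif. Cohesin is a ring made of SMC1A, SMC3 and the kleisin RAD21, to which STAG1 or STAG2 is added as a further subunit. NIPBL loads cohesin and drives it to extrude loops of chromatin, WAPL releases it, PDS5A and PDS5B bind the ring and take part in its release and in its protection, and CTCF stops the extruding ring, so that loop ends lie at CTCF sites. The same ring holds sister chromatids together from replication to anaphase. The study examined chromatin contacts in the same differentiation, and the comparisons here concern the mRNA of the machinery that shapes such contacts. No protein was measured, and in bulk RNA fewer cells of a type and less RNA per cell cannot be told apart.

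Promoter sequences are shown for *Ctcf*, *Wapl* and *Pds5b*, the 3 members that were higher than at 0 h at both 2 h and 4 h and lower than at 0 h at both 48 h and 96 h, a choice made with these values known. Each window holds 250 bases before and 50 bases after the RefSeq start site (RefSeq, GRCm38.p6), 5′ to 3′ on the gene's own strand, here the plus strand for all 3, with CpG dinucleotides in capitals. The windows are chr8:105636288-105636587 for *Ctcf*, chr14:34673678-34673977 for *Wapl* and chr5:150673577-150673876 for *Pds5b*.
Ctcf: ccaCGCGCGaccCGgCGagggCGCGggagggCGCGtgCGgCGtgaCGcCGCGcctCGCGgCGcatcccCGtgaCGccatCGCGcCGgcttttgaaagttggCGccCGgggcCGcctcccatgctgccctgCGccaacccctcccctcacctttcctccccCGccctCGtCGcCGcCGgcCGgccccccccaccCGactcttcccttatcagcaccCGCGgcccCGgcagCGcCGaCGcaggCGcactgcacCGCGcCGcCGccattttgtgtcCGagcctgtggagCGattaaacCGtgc
Wapl: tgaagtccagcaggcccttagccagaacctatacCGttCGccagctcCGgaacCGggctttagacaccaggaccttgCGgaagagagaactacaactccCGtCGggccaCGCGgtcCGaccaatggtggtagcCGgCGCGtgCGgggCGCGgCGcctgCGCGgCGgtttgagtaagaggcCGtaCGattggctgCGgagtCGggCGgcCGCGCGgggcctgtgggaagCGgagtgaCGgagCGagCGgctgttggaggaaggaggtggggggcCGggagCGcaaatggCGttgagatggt
Pds5b: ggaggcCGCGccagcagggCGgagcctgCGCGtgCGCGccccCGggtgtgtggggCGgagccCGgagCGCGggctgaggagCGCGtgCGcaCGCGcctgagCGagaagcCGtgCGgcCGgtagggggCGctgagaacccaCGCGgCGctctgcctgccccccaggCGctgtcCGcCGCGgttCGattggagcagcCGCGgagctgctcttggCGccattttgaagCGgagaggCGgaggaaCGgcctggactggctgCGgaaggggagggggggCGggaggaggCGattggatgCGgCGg
These windows held 47, 35 and 41 CpG, against a median of 7 over 32851 RefSeq promoter windows of the same length. *Smc1a*, *Smc3*, *Stag1* and *Pds5a* were also in the promoter table, and the 7 members ranged from 23 CpG in *Smc1a* to 55 in *Pds5a*, so each lay above the median of all windows. *Rad21*, *Stag2* and *Nipbl* were not in this table. Searched on both strands, the CCAAT box (CCAAT) occurred in 4 of the 7 (*Pds5b*, *Smc1a*, *Stag1* and *Wapl*) and in 37.4% of all windows. The E2F motif TTTCCCGC occurred in *Smc1a* and *Stag1* (1.07% of all windows) and its other form TTTGGCGC in *Pds5a* (0.514%). The GATA motif TGATAA occurred in *Ctcf*, on the strand opposite to the one printed, where it appears as ttatca from 46 bases before the start site, and in 9.05% of all windows. The GATA form AGATAA (11.2% of all windows) and the E-box CACGTG (7.15%) were not found in these 7 windows, which says nothing of sites elsewhere. The GATA forms differ only in their first letter, and a match is a run of letters, not a shown binding site.

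Depth ranged from 3190108 to 12301732 reads on genes per sample, and the members had between 311 reads (*Stag2*) and 8718 reads in a sample, so none was near the detection limit. The labels were checked against marker genes. *Gata6* had at most 1 read in any 0 h library, was 11.4 to 17.2 normalized counts at 2 h and 1887 to 2219 at 96 h. The transgene holds only the coding part of *Gata6*, so reads there can stem from either copy, which the count per gene does not separate. The summed normalized count of 10 primitive endoderm markers ranged from 629 to 906 at 0 h and from 202100 to 278833 at 96 h, and that of 10 pluripotent cell markers from 42162 to 48991 at 0 h and from 3828 to 4618 at 96 h. The 7 fibroblast markers summed to at most 34.0 in any sample, with 5 of the 7 at 3 reads or fewer in every 96 h sample, 7 trophoblast markers to between 674 and 755 at 0 h and between 261 and 735 at 96 h, and 5 markers of 2-cell-like cells to between 2.04 and 121 at 0 h and between 2.51 and 6.37 at 96 h. Replicates 1 and 2 resembled each other more than they resembled replicates 3 and 4 at every time (median chi-square per degree of freedom over genes 1.59 within these sets and 11.4 between them), although the labels name no batch. Values within each set are therefore given beside the results they touch.

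Across the time course the members moved less than the typical gene. The ratio of the highest to the lowest time-point mean had a median of 1.57 over the 10 members and 2.37 over the 15227 genes tested, and ran from 1.15 for *Smc1a* to 2.54 for *Rad21*. Counting noise, larger in genes with few reads, widens this ratio for the whole set. No member reached the 4-fold size that the study set for its own calls between any pair of times. The largest log2 fold change among the 15 fitted comparisons was that of *Rad21* between 2 h and 96 h (-1.18), while 9.28% and 10.3% of all genes were called at that size as higher and lower at 96 h than at 0 h. At the threshold of FDR < 0.1 alone, in limma fitted across all genes tested, most members were higher in the first hours, and more were lower than higher at 96 h. At 2 h, 8 of 10 members were higher than at 0 h, where 22.2% of all genes were higher, with *Smc1a* and *Stag1* not called. At 4 h the count was again 8 of 10 (24.7% of all genes), with *Smc1a* and *Smc3* not called, and at 8 h it was 7 of 10 (26.3%). The median log2 fold change of the members was 0.28, 0.30 and 0.29 at 2, 4 and 8 h, against -0.03, -0.01 and 0.01 over all genes tested.

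At later times the direction was mixed. At 16 h 5 members were higher and 1, *Wapl*, was lower (28.0% and 25.3% of all genes), and at 24 h 7 were higher and *Wapl* again lower (31.2% and 30.7%). Without replicate 1 the count of higher members at 24 h was 3 (4339 of all genes, 4744 in the full fit). Without replicate 4 the count of lower members at 16 h was 2 (3367 of all genes, 3850 in the full fit). At 48 h *Stag1* and *Stag2* were higher and *Ctcf*, *Wapl* and *Pds5b* lower than at 0 h (36.1% and 37.3% of all genes). At 96 h *Stag1*, *Stag2* and *Pds5a* were higher and 6 members, *Ctcf*, *Smc1a*, *Smc3*, *Rad21*, *Wapl* and *Pds5b*, were lower (38.0% and 38.5% of all genes). These 7 comparisons use the same 4 samples at 0 h. With each replicate set averaged to 1 value, which leaves 2 values per time, 12 of the 51 calls against 0 h did not pass. These were *Wapl* at 2, 4 and 8 h, *Smc3* at 2 h, *Pds5b* and *Stag2* at 16 and 24 h, *Ctcf* at 16 h, *Rad21* and *Nipbl* at 24 h, and *Smc1a* at 96 h.

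**Figure D1:**
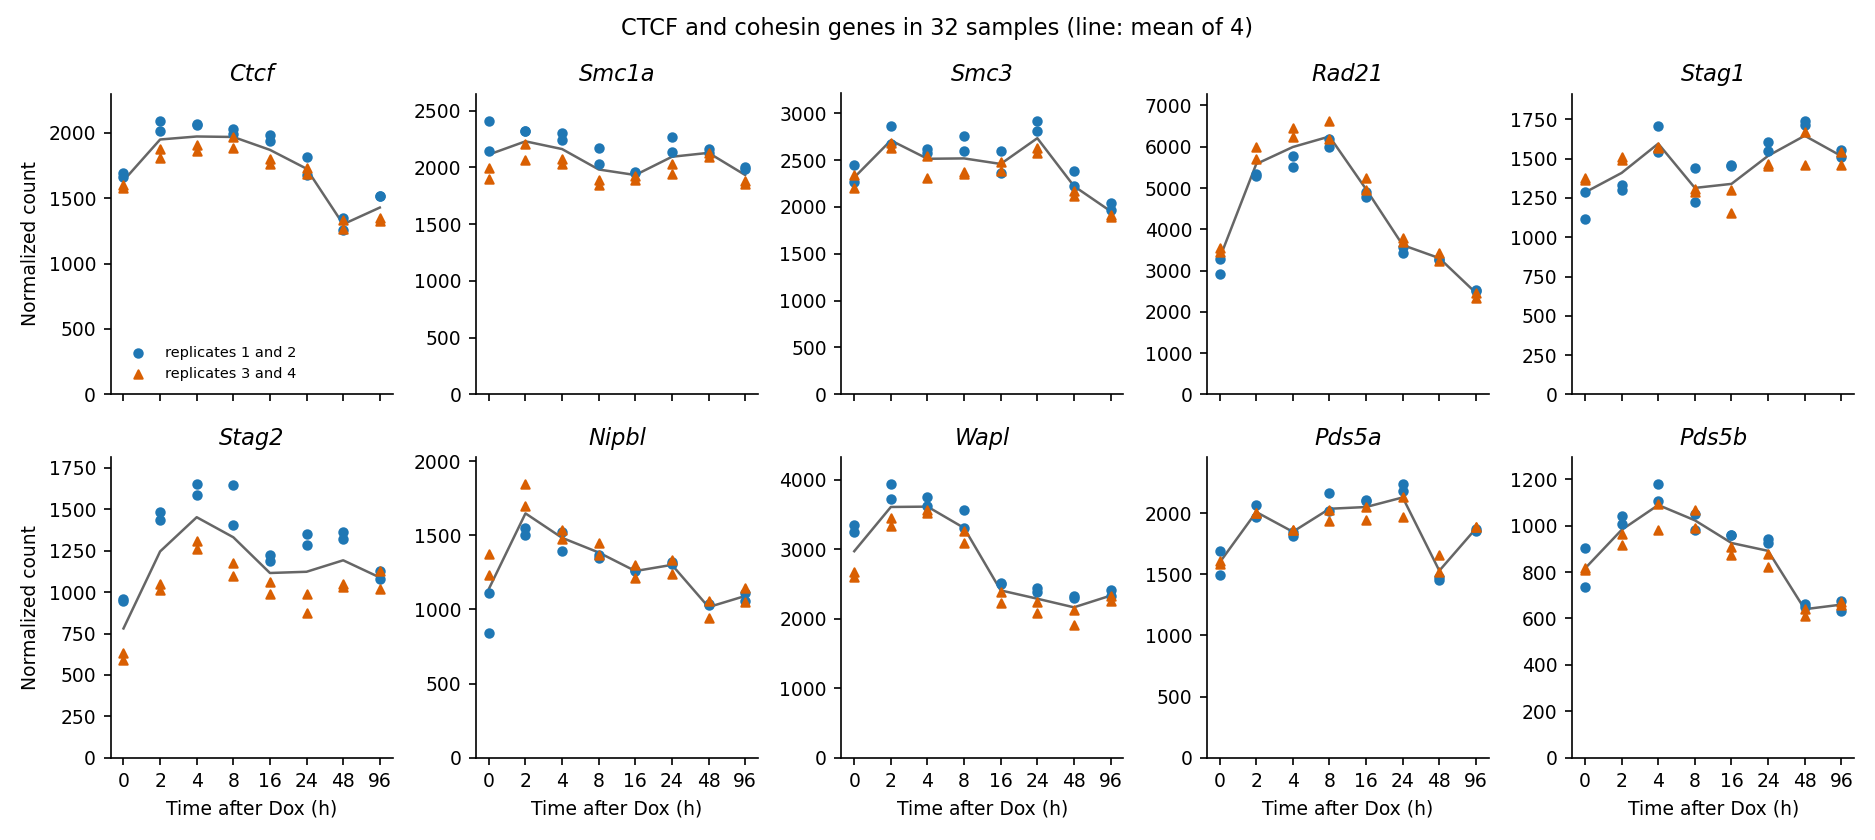
Normalized count of each member (y axis, from 0) at 8 times after Dox (x axis, h, evenly spaced); circles are replicates 1 and 2, triangles replicates 3 and 4, and the line is the mean of 4. *Rad21* rises to a mean of 6249 at 8 h and falls to 2457 at 96 h, *Smc1a* stays between means of 1933 and 2231, and the 2 sets of replicates lie apart for *Stag2*.

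*Ctcf* (chr8:105636568-105682922, plus strand, GRCm38) encodes the architectural protein itself. Its normalized counts in replicates 1 to 4 were 1666, 1694, 1599 and 1579 at 0 h. The 2 h samples had 2016, 2092, 1811 and 1878, and those of 48 h had 1259, 1351, 1263 and 1330.3. All 2 h samples lay above all 0 h samples, and all 48 h samples lay below them. The increase at 2 h was 1.19-fold (log2 fold change 0.25 ± 0.058 (SE), adjusted p = 0.000815), and the means stayed close to it at 4 h (1972 ± 103, SD, n = 4), 8 h (1969 ± 63.1) and 16 h (1869.9 ± 106), each higher than at 0 h. At 24 h the mean was 1726 ± 63.8, which did not pass the test (adjusted p = 0.257). The drop came between 24 h and 48 h, at 0.75-fold (limma adjusted p = 8.51e-07), and left *Ctcf* at 0.80-fold of its 0 h level (log2 fold change -0.33 ± 0.058, limma adjusted p = 9.61e-06). At 96 h the samples were at 1518, 1519.8, 1347 and 1328, still below every 0 h sample. The log2 fold change at 96 h was -0.20 over all samples, -0.14 in replicates 1 and 2, and -0.25 in replicates 3 and 4. Exons of *Ctcf* overlap those of *Agrp* and *Gm5914* on the opposite strand by 114 and 370 bases. Whether the counting used strand was not given in the sources used here, so reads in these stretches cannot be told apart.

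The ring subunits behaved differently from one another. *Rad21* (chr15:51962240-51991747, minus strand), the kleisin that closes the ring and is cut at anaphase, had the widest range of means among the members. Its normalized counts were 2911, 3268, 3460.2 and 3545 at 0 h. The 2 h samples had 5280.0, 5342, 5701 and 6004, and those of 8 h had 5987, 6191, 6188 and 6628. The lowest 2 h sample thus lay well above the highest 0 h sample. The increase was 1.70-fold at 2 h, 1.82-fold at 4 h and 1.90-fold at 8 h (log2 fold change at 8 h 0.93 ± 0.060, limma adjusted p = 1.43e-13), with 0.98 in replicates 1 and 2 and 0.87 in replicates 3 and 4. From there *Rad21* fell at every step: 0.80-fold from 8 to 16 h, 0.73-fold from 16 to 24 h, 0.91-fold from 24 to 48 h and 0.74-fold from 48 to 96 h. The limma adjusted p for these steps was 0.000226, 1.7e-06, 0.0694 and 9.88e-07. With the sets averaged, the steps from 8 to 16 h and from 24 to 48 h did not pass (limma adjusted p = 0.112 and 0.33). At 48 h the samples were at 3260.1, 3288, 3230.1 and 3422, a range that overlapped 0 h. At 96 h they were at 2521, 2513, 2336 and 2457, below every 0 h sample, at 0.75-fold of the 0 h level (limma adjusted p = 3.16e-07). The fall from 8 h to 96 h made the ratio of highest to lowest mean 2.54.

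*Smc1a* (chrX:152016428-152062694, plus strand) and *Smc3* (chr19:53600398-53645833, plus strand) encode the long ATPase arms of the ring. The *Smc1a* samples were at 2411, 2147, 1996 and 1902 normalized counts at 0 h and at 2006, 1989.9, 1858 and 1882 at 96 h. These ranges overlapped. *Smc1a* passed the test against 0 h at 96 h only, with a small decrease (log2 fold change -0.12 ± 0.065, limma adjusted p = 0.0887), and its 8 means lay between 1933 at 16 h and 2231 at 2 h. *Smc3* was at 2443, 2268, 2345 and 2204 at 0 h. The 24 h samples had 2919.8, 2814, 2579 and 2626, and those of 96 h had 2043, 1969, 1892 and 1917. It was higher at 2 h (1.17-fold, limma adjusted p = 0.00243) and at 24 h (1.18-fold, limma adjusted p = 0.000859), without overlap of the samples. It then fell to 0.84-fold of the 0 h level at 96 h (limma adjusted p = 0.000467), again without overlap. At 8 h, when the *Rad21* mean was highest, the means were 1982 ± 149 for *Smc1a* and 2519 ± 192 for *Smc3* (SD, n = 4), neither of which differed from 0 h at the threshold (limma adjusted p = 0.281 and 0.101).

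STAG1 and STAG2 are alternative subunits that contact the kleisin and, with it, CTCF. *Stag2* (chrX:42149317-42277185, plus strand) had normalized counts of 961, 944, 630.3 and 587 at 0 h and 1589, 1649.9, 1310.1 and 1259 at 4 h. Replicates 1 and 2 lay above replicates 3 and 4 at both times. At 0 h the means of these sets were 952 and 609, a ratio of 1.56, and the standard error of the log2 fold change of *Stag2* (0.16) was the largest of the members. *Stag2* was higher than at 0 h at all 7 later times, from 1.43-fold at 96 h to 1.89-fold at 4 h (log2 fold change 0.92, limma adjusted p = 3.22e-05). The 24 h samples overlapped those at 0 h. With the sets averaged the limma adjusted p at 16 and 24 h was 0.131 and 0.113. By total reads the 96 h change was not called (0.25, limma adjusted p = 0.165). At 4 h the log2 fold change was 0.76 in replicates 1 and 2 and 1.08 in replicates 3 and 4, while at 96 h these values were 0.21 and 0.82. At 96 h the samples were at 1125, 1079, 1019 and 1129.9, where the sets no longer lay apart. Against 2 h, within serum medium, *Stag2* was not called at 48 h or 96 h (log2 fold change -0.05 and -0.17, limma adjusted p = 0.781 and 0.339). At 96 h the sets gave -0.40 and 0.06, and *Stag2* was called lower there with the replicate block (limma adjusted p = 0.0549), with upper-quartile scaling (0.0929) and by total reads (0.0656). Under these scalings the median of all genes at 96 h against 2 h was itself at -0.18 and -0.20. A stretch of 28 exonic bases of *Stag2* overlaps *Gm37564* on the opposite strand.

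*Stag1* (chr9:100597798-100959375, plus strand) was at 1119, 1285, 1376 and 1362 normalized counts at 0 h. The samples were at 1541, 1706, 1572 and 1565 at 4 h, and at 48 h at 1741, 1715, 1460.2 and 1669.8. Samples at both later times lay above all 0 h samples. The increase was 1.24-fold at 4 h (limma adjusted p = 0.00123) and 1.28-fold at 48 h (limma adjusted p = 0.000126), and *Stag1* was also higher at 24 h (1.18-fold) and 96 h (1.18-fold). It was back near its starting level in between, with means of 1314 ± 92.0 at 8 h and 1339.9 ± 145 at 16 h (SD, n = 4), and the step from 4 h to 8 h was a decrease (0.82-fold, limma adjusted p = 0.0118). The sets of replicates differed in size: at 48 h the log2 fold change was 0.53 in replicates 1 and 2 and 0.19 in replicates 3 and 4, and at 16 h it was 0.28 and -0.16. Over its own course the lowest mean of *Stag1* was at 0 h and the highest at 48 h.

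*Nipbl* (chr15:8290617-8444463, minus strand), the loader, rose early. Its normalized counts were 842, 1107, 1375 and 1229.6 at 0 h. The 2 h samples had 1500.3, 1548, 1699 and 1843, and those of 48 h had 1034, 1031, 943 and 1056. At 0 h replicates 1 and 2 had a mean of 975 and replicates 3 and 4 a mean of 1302, while at 2 h all 4 samples lay above all 0 h samples. The increase at 2 h was 1.46-fold (log2 fold change 0.55 ± 0.088, limma adjusted p = 8.76e-06), 0.66 in replicates 1 and 2 and 0.44 in replicates 3 and 4. The means declined to 1384 ± 44.6 at 8 h and 1259 ± 37.9 at 16 h (SD, n = 4). At 48 h and 96 h *Nipbl* did not differ from 0 h at the threshold (limma adjusted p = 0.151 and 0.698), and the sets pointed in opposite directions, with 0.10 and -0.38 at 48 h. It was called lower at both times with upper-quartile scaling (-0.24 at each, limma adjusted p = 0.0152 at each) and by total reads (-0.28 and -0.30, limma adjusted p = 0.0104 and 0.00499). The median of all genes was itself at -0.12 and -0.22 with upper-quartile scaling, and at -0.16 and -0.29 by total reads. Against 2 h, within serum medium, both sets were lower at 48 h (-0.56 and -0.83) and at 96 h (-0.49 and -0.69).

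*Wapl* (chr14:34673928-34747983, plus strand), whose product opens the ring and takes cohesin off chromatin, rose and then fell below its start. Its normalized counts were 3250.4, 3353, 2677 and 2599 at 0 h. The 4 h samples had 3620.1, 3743, 3559 and 3519, and those of 16 h had 2505, 2508, 2227 and 2386. All 4 h samples lay above, and all 16 h samples below, every 0 h sample. The increase was 1.22-fold at 2 h and 1.22-fold at 4 h (limma adjusted p = 0.0034 and 0.00266), and the 2 h samples overlapped those at 0 h. With the sets averaged neither passed (limma adjusted p = 0.127 and 0.11). The largest step was from 8 h to 16 h (0.73-fold, log2 fold change -0.46 ± 0.076, limma adjusted p = 6.53e-05), and it was -0.45 and -0.46 in the sets of replicates. *Wapl* then stayed below 0 h, at 0.81-fold at 16 h, 0.77-fold at 24 h, 0.73-fold at 48 h and 0.79-fold at 96 h. At 96 h the samples were at 2330.2, 2405, 2331 and 2259. The decrease against 0 h was larger in replicates 1 and 2, which started higher, than in replicates 3 and 4: -0.48 and -0.20 at 96 h.

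*Pds5a* (chr5:65605721-65698273, minus strand) and *Pds5b* (chr5:150673739-150810690, plus strand) lie on the same chromosome and encode related ring-binding proteins. *Pds5a* was at 1492, 1693, 1586 and 1611 normalized counts at 0 h. At 24 h it was at 2234, 2177, 1968 and 2131, at 48 h at 1454, 1481, 1522 and 1658, and at 96 h at 1852, 1868, 1889 and 1885. The 24 h and 96 h samples lay above all 0 h samples, while those at 48 h overlapped them. *Pds5a* was higher than at 0 h at every time but 48 h, with 1.33-fold at 24 h (limma adjusted p = 3.73e-08) and 1.18-fold at 96 h (limma adjusted p = 0.000147). The step from 24 h to 48 h was 0.72-fold and its return from 48 h to 96 h 1.23-fold (limma adjusted p = 5.24e-09 and 1.76e-05), in both sets of replicates. *Pds5b* was at 734, 902, 808 and 818 at 0 h. The 4 h samples had 1104, 1177, 1094 and 979, and those of 96 h had 630.3, 676, 660.3 and 672. It peaked at 4 h (1.34-fold, limma adjusted p = 3.84e-06), went to 0.72-fold of its level from 24 h to 48 h, and did not return, being 0.79-fold of the 0 h level at 48 h and 0.81-fold at 96 h (limma adjusted p = 1.87e-05 and 0.0001). Exons of *Pds5a* overlap *Gm42727* and *Gm42729* on the opposite strand by 255 and 119 bases.

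**Figure D2:**
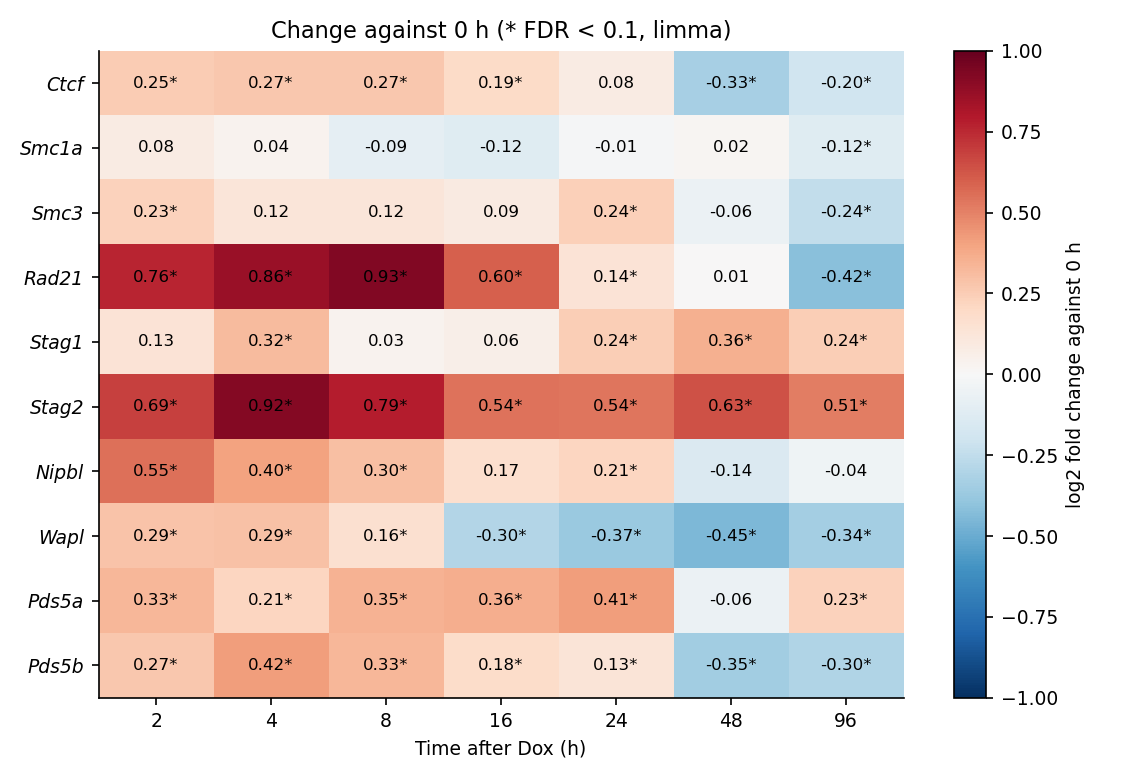
Log2 fold change of each member (rows) at 7 times after Dox (columns, h) against 0 h, by color from blue (lower) to red (higher), with the value printed and an asterisk where FDR < 0.1 (limma, 15227 genes). At 2, 4 and 8 h the values are above 0 apart from *Smc1a* at 8 h (-0.09), with *Stag1* at 8 h close to it (0.03). *Wapl* turns blue from 16 h. At 48 and 96 h *Stag1* and *Stag2* are higher while *Ctcf*, *Wapl* and *Pds5b* are lower. Scaled to total reads, the 96 h values of *Stag1* and *Pds5a* are -0.02 and -0.03.

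The 48 h and 96 h samples were also compared with 2 h, since cells at these times shared the serum medium, although Dox was present only at 2 h. At 48 h 7 members were lower than at 2 h and *Stag1* was higher (38.3% and 36.9% of all genes). At 96 h 8 members were lower (39.4% of all genes), with *Stag1* and *Stag2* not called. The median log2 fold change of the members was -0.49 at 48 h and -0.46 at 96 h, against -0.03 and -0.04 over all genes tested. *Rad21* fell most, to 0.59-fold at 48 h and 0.44-fold at 96 h (limma adjusted p = 4.53e-17). *Wapl* was at 0.65-fold, *Nipbl* at 0.66-fold, *Pds5b* at 0.67-fold, *Smc3* at 0.72-fold and *Ctcf* at 0.73-fold of the 2 h level at 96 h. *Smc1a* (0.87-fold) and *Pds5a* (0.93-fold, limma adjusted p = 0.0759) changed least among those called. The sets of replicates had the same sign in all 8 of the members called lower at 96 h. With the sets averaged, *Pds5a* and *Smc1a* did not pass there (limma adjusted p = 0.295 and 0.106).

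Between neighbouring times from 2 h on, few members changed before 24 h, where the shares of all genes called were also small. From 2 h to 4 h *Stag1* was higher and *Pds5a* lower (13.6% and 10.9% of all genes), and from 4 h to 8 h *Pds5a* was higher and *Stag1* lower (9.51% and 7.57%). From 8 h to 16 h *Rad21* and *Wapl* were lower (10.6% of all genes). From 16 h to 24 h *Smc3* and *Stag1* were higher and *Rad21* lower (13.3% and 14.8%). Among these steps, that from 24 h to 48 h held the most calls, both of members and over all genes (4538 higher and 4226 lower). *Ctcf*, *Smc3*, *Rad21*, *Nipbl*, *Pds5a* and *Pds5b* were lower there, 6 of 10 members beside 27.8% of all genes. No member was higher there, beside 29.8% of all genes. From 48 h to 96 h *Ctcf* and *Pds5a* were higher and *Smc1a*, *Smc3* and *Rad21* lower (27.3% and 27.2%). Most calls at 2 to 4 h and 4 to 8 h were near the threshold (limma adjusted p = 0.0985 and 0.0975, then 0.0693 and 0.0118), and both *Pds5a* calls were lost when any 1 replicate was left out. The *Stag1* call at 4 h was lost without replicate 1, 2 or 4. From 16 h to 24 h the count of higher members was 0 or 1 with 1 replicate left out, and from 48 h to 96 h it was 1 without replicate 1 or 2.

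Ratios of 2 members within a sample do not depend on the scaling. For 4 ratios, each later time was compared with 0 h by a two-sided exact permutation test of the log2 ratio of normalized counts, 28 tests in all, in which the smallest possible p with 4 against 4 samples is 0.0286 and its Benjamini-Hochberg adjusted value over the 28 tests was 0.08. The log2 ratio of *Ctcf* to *Rad21* ranged from -1.17 to -0.81 at 0 h and from -1.75 to -1.59 at 8 h. The ratio was lower, without overlap and at that smallest p, at 2, 4, 8, 16 and 48 h, with differences of -0.51, -0.59, -0.66, -0.40 and -0.34. At 24 h (-0.06, exact p = 0.543) and 96 h (0.22, exact p = 0.0571) the samples overlapped those at 0 h. At 48 h the mean of *Rad21* was 3300.1 ± 84.8 beside 3296 ± 282 at 0 h (SD, n = 4), and that of *Ctcf* 1301 ± 46.8 beside 1634 ± 54.3.

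The log2 ratio of *Pds5b* to *Pds5a* ranged from -1.02 to -0.91 at 0 h and from -1.55 to -1.47 at 96 h. It was lower without overlap at 16, 24, 48 and 96 h, with differences of -0.18, -0.28, -0.28 and -0.54 (exact p = 0.0286 and adjusted p = 0.08 at each). At 96 h the sets of replicates gave -0.54 and -0.53. The log2 ratio of *Nipbl* to *Wapl* was higher without overlap at 24 h only, by 0.58 (exact p = 0.0286, adjusted p = 0.08), and the sets gave 0.90 and 0.27. At the other times it overlapped 0 h, where it ranged from -1.95 to -0.96 and averaged -1.77 in replicates 1 and 2 and -1.02 in replicates 3 and 4. Within replicates 1 and 2 the samples lay above those at 0 h at all 7 later times, by 0.44 at 8 h to 0.90 at 24 h. Replicates 3 and 4 lay below theirs at 4 and 8 h (-0.21 and -0.15) and above at 16 and 24 h (0.14 and 0.27). At 2, 48 and 96 h replicates 3 and 4 overlapped their 0 h samples. The log2 ratio of *Stag1* to *Stag2* ranged from 0.22 to 1.21 at 0 h and overlapped that range at all 7 later times, with exact p from 0.0571 at 8 h to 0.371 at 48 h and 96 h. At 0 h this ratio averaged 0.33 in replicates 1 and 2 and 1.17 in replicates 3 and 4, a spread in the reference group that the pooled test counts as error. Within each set the samples at 2, 4 and 8 h all lay below those at 0 h, with differences of -0.48, -0.33 and -0.53 in replicates 1 and 2 and of -0.63, -0.88 and -0.98 in replicates 3 and 4, where 2 samples per time allow no test. From 16 h on, replicates 1 and 2 overlapped their 0 h samples, while replicates 3 and 4 stayed below theirs (-0.91, -0.51, -0.58 and -0.69 at 16, 24, 48 and 96 h).

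**Figure D3:**
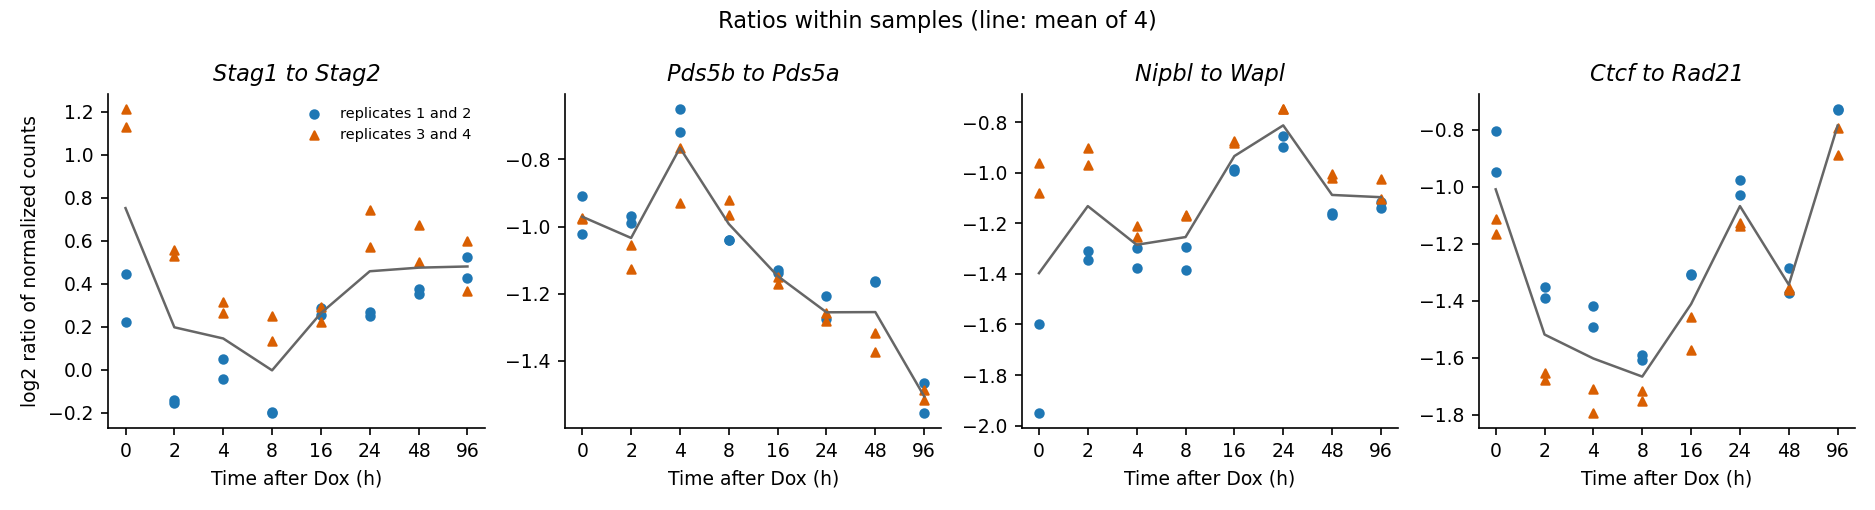
Log2 ratio of normalized counts of 2 members within each sample (y axis) at 8 times after Dox (x axis, h); circles are replicates 1 and 2, triangles replicates 3 and 4, the line the mean of 4. *Ctcf* to *Rad21* dips from a mean of -1.01 at 0 h to -1.67 at 8 h, *Pds5b* to *Pds5a* declines to -1.51 at 96 h, and the sets lie apart at 0 h for *Stag1* to *Stag2* and *Nipbl* to *Wapl*.

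To compare levels between genes, normalized counts were divided by the length of all exons of the gene joined (GENCODE M21, GRCm38), which assumes that all of it is transcribed. At 0 h *Rad21* had the highest level (779 ± 66.6 normalized counts per kb, SD, n = 4). *Wapl* (448 ± 58.4), *Smc3* (418 ± 18.6), *Smc1a* (366 ± 38.6) and *Ctcf* (336 ± 11.2) followed, each overlapping its neighbour in this order. A gap separated them from *Nipbl* (121 ± 24.0), *Stag1* (109 ± 9.99), *Stag2* (94.4 ± 24.1), *Pds5b* (82.9 ± 6.99) and *Pds5a* (82.5 ± 4.28), which again overlapped from one to the next. At 8 h *Rad21* was at 1476 ± 63.9 per kb and *Ctcf* (405 ± 13.0) lay above *Smc1a* (344 ± 25.8) without overlap. At 96 h *Rad21* was at 581 ± 20.2, and *Smc3* (353 ± 12.0), *Wapl* (352 ± 9.04) and *Smc1a* (335 ± 13.0) overlapped in order above *Ctcf* (294 ± 21.6). *Stag2* (132 ± 6.21) and *Stag1* (129 ± 3.65) overlapped at 96 h, and *Pds5a* (96.9 ± 0.892) lay above *Pds5b* (67.1 ± 2.11), which it had overlapped at 0 h.

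**Figure D4:**
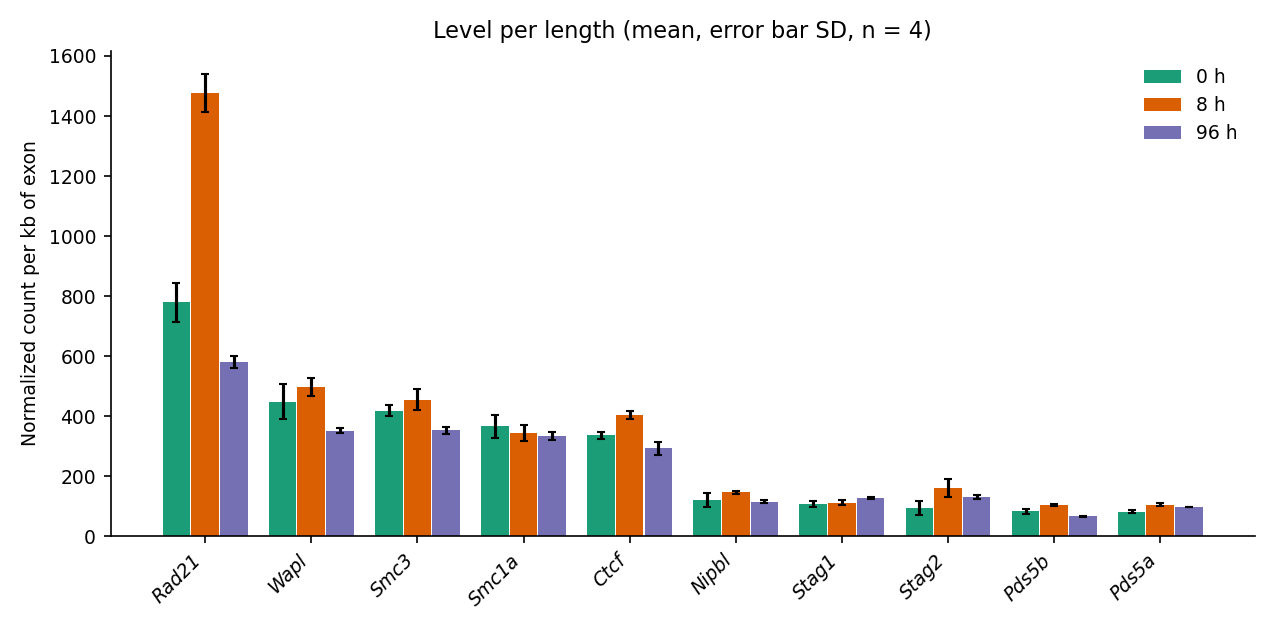
Mean normalized count per kb of joined exons (y axis, from 0) for each member, in order of its level at 0 h, at 0, 8 and 96 h; bars are means and error bars SD of 4 samples. *Rad21* stands at 779, 1476 and 581 per kb, and the 5 genes on the right stay at or under 161 per kb at these times.

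Over the 32 samples, which share the 8 time points and their libraries, the log2 normalized counts of members were mostly related positively. Of 45 pairs 38 had a Pearson r above 0, with a median of 0.44. The highest was *Ctcf* with *Pds5b* (r = 0.94) and the lowest *Ctcf* with *Stag1* (r = -0.34). The nearest gene was sought among tested genes outside the members that had a symbol in the deposited values. The one most like *Ctcf* was *Rbm27* (r = 0.965), the one most like *Rad21* was *Xiap* (r = 0.960), and the one most like *Pds5b* was *Smarcad1* (r = 0.958). *Sfn* was nearest to *Wapl* (r = 0.943), *Rad54l2* to *Nipbl* (r = 0.921), *Prdx1* to *Smc3* (r = 0.896) and *Aire* to *Stag2* (r = 0.871). *Top1* was nearest to *Pds5a* (r = 0.867), *Tpt1* to *Smc1a* (r = 0.842) and *Gtf3c3* to *Stag1* (r = 0.807). These are descriptions over samples of one time course.

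Other regulators of cohesin were read from a list of 15. Of these, 14 were tested (*Ctcfl* did not pass the filter), and at 48 h 3 were higher and 9 lower than at 0 h (36.1% and 37.3% of all genes), and at 96 h 4 higher and 9 lower (38.0% and 38.5%), with a median log2 fold change of -0.61 at 96 h against -0.03 over all genes. *Esco2*, an acetyltransferase that secures cohesion during replication, ranged from 1634 to 1942 normalized counts at 0 h and from 524 to 592 at 96 h (log2 fold change -1.68 ± 0.14, limma adjusted p = 5.55e-12). *Cdca5*, which encodes sororin, the antagonist of WAPL on replicated chromatin, ranged from 931 to 1273 at 0 h and from 438 to 488 at 96 h (-1.18 ± 0.087). *Pttg1*, which encodes securin, the inhibitor of separase, changed by -1.10 ± 0.17, and *Ddx11*, a helicase with a role in cohesion, by -1.44 ± 0.090. *Phf6*, a chromatin protein, was lower at both 48 h (-2.06 ± 0.23) and 96 h (-2.08 ± 0.23). The 4 regulators higher at 96 h were *Mau2*, the partner of NIPBL (0.43 ± 0.11), *Esco1* (0.49 ± 0.071), *Haspin* (0.71 ± 0.088) and *Zfp143* (0.20 ± 0.082). Scaled to total reads, the counts at 96 h were 2 higher and 9 lower (29.6% and 50.1% of all genes).

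Of the meiotic paralogues of the ring subunits, 3 of 4 were tested. *Rec8*, the meiotic kleisin, ranged from 120.3 to 164 normalized counts at 0 h and from 4.73 to 10.6 at 96 h (log2 fold change -4.29 ± 0.21, limma adjusted p = 2.3e-17). *Stag3* ranged from 381 to 557 at 0 h and from 121 to 241 at 96 h (-1.36 ± 0.16). *Smc1b* was not called at 96 h in this fit (6.11 to 18.9 at 0 h and 3.78 to 10.6 at 96 h, limma adjusted p = 0.128), and *Rad21l* did not pass the filter. The 2 related SMC complexes gave mixed counts. Of 8 condensin subunits, which compact mitotic chromosomes, 6 were higher and 1 lower at 2 h (22.2% and 22.6% of all genes), and 3 higher and 2 lower at 96 h (38.0% and 38.5%). At 96 h *Ncapd2* was at -0.94 ± 0.082, *Ncaph2* at 0.61 ± 0.051 and *Smc4* at 0.55 ± 0.053. Of 8 genes of the SMC5/6 complex, which acts in DNA repair, 4 were higher and 3 lower at 96 h, beside the same shares of all genes, with *Smc6* at 0.68 ± 0.072 and *Smc5* at 0.51 ± 0.12. The split at 96 h turned with the scaling: by total reads it was 2 higher and 5 lower for condensin, and 2 higher and 4 lower for SMC5/6, while *Smc1b* was then lower as well. The shares of all genes were then 29.6% higher and 50.1% lower.

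**Figure D5:**
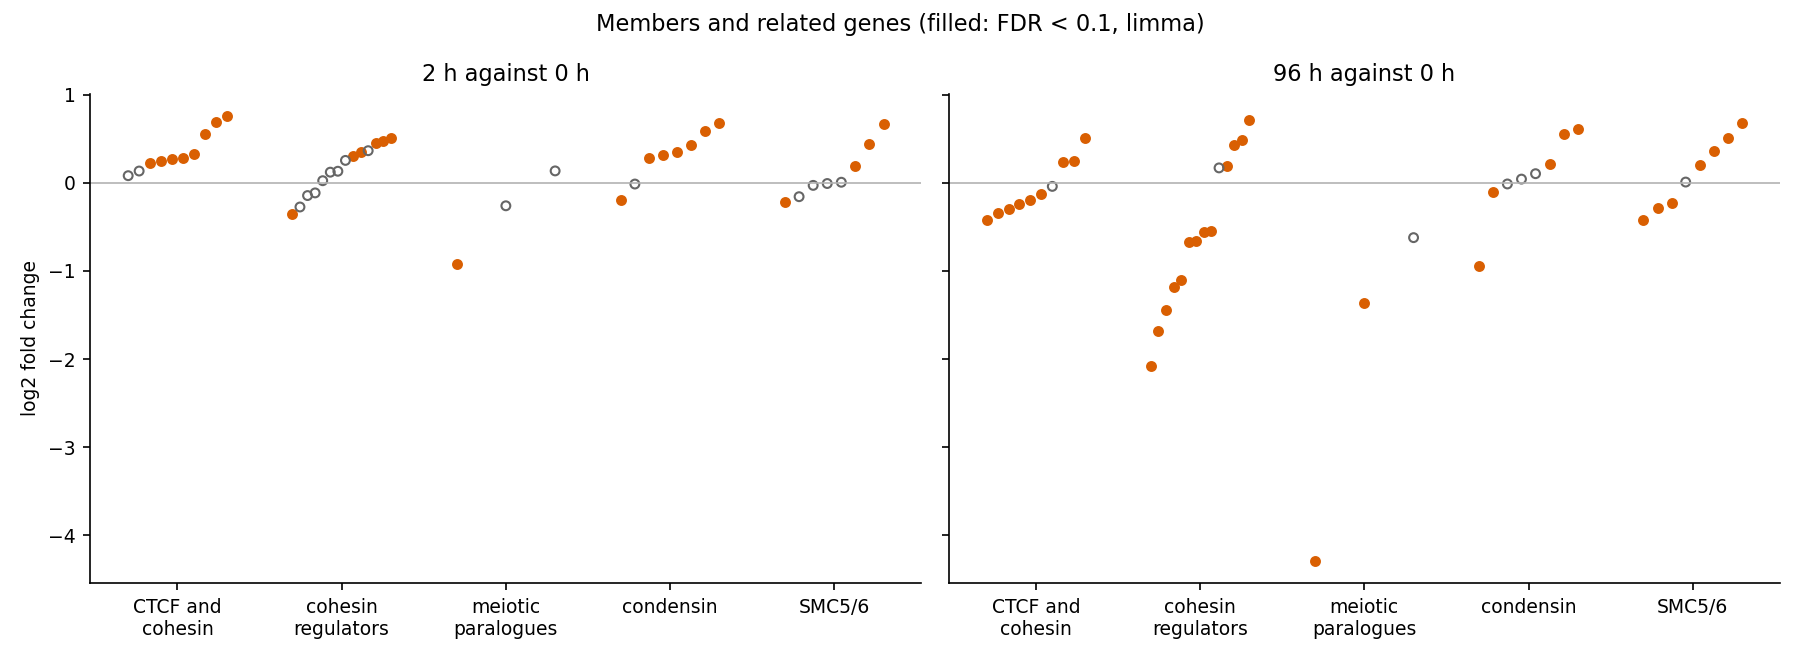
Log2 fold change against 0 h (y axis) at 2 h (left) and 96 h (right), 1 point per gene, in order within each list; filled points passed FDR < 0.1 (limma), open points did not. At 96 h the members lie between -0.42 and 0.51. In the list of cohesin regulators the chromatin protein gene *Phf6* lies at -2.08 and *Esco2* at -1.68, while *Rec8* lies at -4.29. Scaling by total reads lowers the median of all genes at 96 h to -0.29 and turns the balance of the condensin and SMC5/6 lists.

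Cohesin has a part in the cell cycle, so genes of mitosis and replication were read beside the members. At 2 h 7 of 12 mitotic genes were higher and 1 was lower (22.2% and 22.6% of all genes), 12 were higher at 24 h (31.2%) and 10 at 48 h (36.1%). The 96 h samples had 3 higher and 4 lower (38.0% and 38.5%). These late counts depended on the scaling. Total reads gave 2 higher and 9 lower at 96 h, beside 29.6% and 50.1% of all genes. Upper-quartile scaling gave 2 and 7 there (31.6% and 47.2%). For 48 h the split became 6 and 2 by total reads (31.0% and 43.5%), and 7 and 2 by upper quartile (32.3% and 41.8%). The summed normalized count of the mitotic genes ranged from 28458 to 29703 at 0 h, from 35933 to 37708 at 2 h and from 30692 to 32005 at 96 h. Of 10 replication genes 4 were higher and 2 lower at 2 h, 8 were lower and 1 higher at 48 h (37.3% and 36.1% of all genes), and 9 were lower and 1 higher at 96 h. Their sum ranged from 31808 to 33440.2 at 0 h and from 17545 to 19617 at 96 h. No mitotic or replication gene was at 3 reads or fewer in these groups. The part of such differences in the members' values was not tested.

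The late values depended on the scaling. With each sample scaled to its total reads, the median log2 fold change of all genes tested was -0.16 at 48 h and -0.29 at 96 h, instead of -0.02 and -0.03 with the size factors of the authors, and 37.1% instead of 49.7% of the genes called at 96 h were higher. At 2 h that share was 35.6% instead of 49.5%, and 7 members were still higher there (17.2% of all genes). By total reads 7 members, *Nipbl* among them, were lower at 48 h and 2 (*Stag1* and *Stag2*) higher (43.5% and 31.0% of all genes). At 96 h 7 were again lower (50.1% of all genes), while *Stag2* (0.25), *Stag1* (-0.02) and *Pds5a* (-0.03) were not called. Relative to the median of all genes, the 96 h changes under total reads were 0.54 for *Stag2*, 0.27 for *Stag1*, 0.26 for *Pds5a*, -0.10 for *Smc1a*, -0.17 for *Ctcf*, -0.22 for *Smc3*, -0.28 for *Pds5b*, -0.32 for *Wapl* and -0.40 for *Rad21*. *Nipbl* lay at -0.02. A change of scaling moves all genes of a sample by the same amount, so these relative values do not depend on it, apart from the pseudocount.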

How the data were processed

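Total RNA of 32 samples (8 time points, 4 replicates each) was sequenced as polyA-selected, stranded single-end libraries. Reads were trimmed by the authors (cutadapt 2.7), aligned to GRCm38.p6 (HISAT2 2.1.0) and counted per gene with featureCounts (Subread 1.6.4), and the authors deposited variance-stabilized log2 values. Here this transformation was undone. Divided by each sample's smallest step, 100% of values came out as whole reads (tolerance 1e-06), between 3190108 and 12301732 per sample, which set counting error. Symbols missing from 29140 rows were taken from a table of gene identifiers (29046 matched).

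The 15227 genes that reached 10 normalized counts in 4 or more samples were fitted together in limma 3.58.1 (R 4.3.3, trend) on log2(normalized count + 1), with Benjamini-Hochberg adjustment over all of them in each of 15 comparisons. "Higher" and "lower" mean FDR < 0.1. Fold changes are on this scale. Ratios were tested by exact permutation (scipy 1.17.1). The members and lists were chosen with earlier results of these data known. The rule for named genes was all 10 members, related genes (cohesin regulators, meiotic paralogues, condensin, SMC5/6) with FDR < 0.1 and a 2-fold change or more at 48 h or 96 h, members of lists behind small counts, and the gene nearest to each member by Pearson r. *Ncapd2*, *Ncaph2*, *Smc4*, *Smc5* and *Smc6* were named after their values were seen. The fit was also run on simulated counts. These held no difference between replicate sets, so they cannot show how such differences affect the calls. Alternatives were pseudocount, filter, scaling, replicate block, fewer samples, threshold, the deposited variance-stabilized values, limma-voom, and replicates left out, averaged or split. Other assays of the study were not analysed here.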

Additional observations from a re-analysis of the deposited data

How the results depend on the processing

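Of 2700 single-gene results (18 settings, 10 members, 15 comparisons), 2473 kept their side of the threshold, 81 passed it only under the alternative, 140 were lost and 6 changed sign with a call in one or both fits. Of the 2473, a further 61 that were called in neither fit changed sign, with values of at most 0.126 in size under the alternative, such as *Nipbl* at 48 h in replicates 1 and 2 alone (0.10). The 2 pseudocounts and the deposited values as they are changed no call. The 6 sign changes with a call were those of *Stag1* at 16 h (-0.16) and *Nipbl* at 24 h (-0.015) in replicates 3 and 4 alone, *Nipbl* at 96 h (0.17) in replicates 1 and 2 alone, and *Rad21* at 48 h (-0.13), *Stag1* at 96 h (-0.021) and *Pds5a* at 96 h (-0.031) with scaling by total reads, where the median of all genes was itself at -0.29 at 96 h, instead of -0.03. The cause of the differences between the replicate sets was not tested. The within-set fits rest on 2 samples per time, and with 1 library per group left nothing was fitted.

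Counts of members called also changed with the setting, and so did the counts of all genes called, which are given beside them. At 4 h against 2 h the main count was 1 higher and 1 lower. The higher count was 0 at FDR 0.05, without the filter, with only the time points compared, with limma-voom and with the sets averaged, 2 with a mean filter of 50, with upper-quartile scaling and in replicates 3 and 4, and 3 with the replicate block and with total reads. The lower count was 0 at FDR 0.05, without the filter, with either scaling, with the sets averaged and in replicates 1 and 2, and 2 with the block and in replicates 3 and 4. Of all 15227 genes 2064 were higher and 1657 lower in the main fit. These numbers were 2556 and 2222 with the block, and 523 and 285 with the sets averaged. At 8 h against 4 h (1 and 1) the higher count was 0 at FDR 0.05, without the filter, with only the time points compared, with the sets averaged and in replicates 3 and 4, and the lower count was 3 with the block, 4 in replicates 3 and 4 and 0 with the sets averaged. Over all genes the number lower was 1152 in the main fit and 1596 with the block. It was 1973 in replicates 3 and 4 and 203 with the sets averaged. At 16 h against 8 h (2 lower) the lower count of members was 4 with only the time points compared and with the block, 6 in replicates 3 and 4 and 1 with the sets averaged. Over all genes it was 1615 in the main fit, 2203 with only the time points compared and 2167 with the block. In replicates 3 and 4 it was 2618, and with the sets averaged 331. At 24 h against 16 h (2 higher, 1 lower) the higher count was 0 at FDR 0.05, without the filter, with the sets averaged and with either scaling, and 1 with only the time points compared and in replicates 3 and 4, and the lower count was 2 with the block and in either set alone. Of all genes 2031 were higher in the main fit, 622 with the sets averaged, 1963 with upper-quartile scaling and 1881 with total reads. The number lower was 2261 in the main fit and 2851 with the block. At 48 h against 24 h 1 member was higher in replicates 3 and 4 (4911 of all genes, 4538 in the main fit). At 96 h against 48 h (2 higher, 3 lower) the higher count was 1 at FDR 0.05, without the filter, with only the time points compared, with the sets averaged and with either scaling, and the lower count was 1 with the sets averaged. Of all genes 4155 were higher and 4143 lower in the main fit, and 2625 and 2687 with the sets averaged. The number higher was 3191 with upper-quartile scaling and 2954 with total reads.

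Against 0 h, 2 members were lower at 16 h (main 1) with the block, in either set alone and with total reads, and 2 were higher (main 5) with the sets averaged. Of all genes 3850 were lower there in the main fit, 4259 with the block and 4284 with total reads. The number higher was 4265 in the main fit and 2864 with the sets averaged. At 24 h (7 higher) 4 were higher with only the time points compared and with total reads, and 3 with the sets averaged. Over all genes the number higher was 4744 in the main fit and 4313, 4279 and 3566 under these settings. At 48 h (3 lower) 6 were lower with upper-quartile scaling and 7 with total reads (41.8% and 43.5% of all genes). At 96 h (3 higher) 1 and 0 were higher under these scalings (31.6% and 29.6% of all genes). Against 2 h, 1 member was higher at 96 h in replicates 1 and 2, and 0 at 48 h (main 1) in replicates 3 and 4. Of all genes 5704 and 5679 were higher there, and 5720 and 5613 in the main fit. With 1 replicate left out the counts ranged from 3 to 6 higher at 24 h against 0 h, 1 to 2 lower at 16 h against 0 h, 0 to 1 higher and 0 to 0 lower at 4 h against 2 h, 0 to 0 higher at 8 h against 4 h, 0 to 1 higher at 24 h against 16 h and 1 to 2 higher at 96 h against 48 h.

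Same-numbered samples of different times deviated together no more (mean r 0.196) than other samples of the same set (0.196), and the lowest correlation was -0.043, so the numbers were not taken to pair samples. With the replicate block 15 single-gene calls were gained and 0 were lost, while with the replicate sets averaged, which leaves 2 values per time, 0 were gained and 25 of 87 lost, so none of the 15 passed there. In the paired sign-flip test of the ratios (replicate block) no call can pass, since the smallest p with 4 pairs is 0.125, so those of *Ctcf* to *Rad21* (-0.51, -0.59, -0.66, -0.40 and -0.34 at 2, 4, 8, 16 and 48 h), *Pds5b* to *Pds5a* (-0.18, -0.28, -0.28 and -0.54 at 16, 24, 48 and 96 h) and *Nipbl* to *Wapl* (0.58 at 24 h) did not pass it. On the recovered reads, limma-voom called 5800 genes higher and 5833 lower at 96 h. The lowest count of a member was 311 reads, and whether depth limited any call was not tested. No sample of a member or ratio stood apart from the other 3 of its time by Dixon's test (0 of 112 groups).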
